A study of Equus caballus with 4 samples.

Results

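The deubiquitinases of the USP and OTU families were examined in cultured equine satellite cells (ESC), the stem cells of skeletal muscle, while they differentiated into myotubes. Members were the gene probes whose annotated name begins with USP followed by a number, or with OTUB or OTUD followed by a number. The rule found 105 probes for 54 gene names, of 24998 gene names on the array. Of these names 46 were USP and 8 were OTU. Treated cells had been given 0.125 µM gamma-oryzanol (GO) for 24 h. GO is obtained from rice bran oil and consists of ferulic acid esters of sterols and triterpene alcohols. During the last 1 h the treated cultures also held 3 mM hydrogen peroxide (H2O2). Control cells did not receive GO. Their labels do not mention H2O2, but in the study's account they were given H2O2 alone. Cells of both groups came from the m. semitendinosus of young stallions, were of a single chosen primary line and were collected on day 3 of differentiation. RNA of treated cells (red, Cy5) and control cells (green, Cy3) was hybridised together on 4 arrays of 1 slide, with no dye swap, so that treatment and dye cannot be told apart. The labels call the arrays biological replicates, but as cultures of 1 line they do not sample the variation between lines or horses. The number of arrays limits the precision, and p-values measure only the spread between these 4 arrays.

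Ubiquitin is a small protein that is attached to other proteins in chains, and the linkage of a chain marks its target for the proteasome, for sorting or for signalling. Deubiquitinases cut ubiquitin off again. USP and OTU enzymes are both cysteine proteases. USP enzymes mostly choose their substrates through domains outside the catalytic core, whereas many OTU enzymes choose by the type of chain. In muscle the ubiquitin-proteasome system removes regulators of differentiation and breaks down contractile proteins in atrophy. The comparison addressed which of these transcripts differed in abundance after GO pre-incubation.

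A value below is the log2 ratio of treated over control signal on 1 array, or its mean over the 4 arrays, so that a positive value means more signal with GO and H2O2. The labelled RNA was that of whole cultures, in which fewer cells of a type and less RNA per cell cannot be told apart. Of the 105 member probes 76 were well above background on all 4 arrays in at least 1 channel and were tested, and 13 were above background nowhere. A gene is described by its brightest tested probe. By this rule 40 of the 54 genes were measured, 35 USP and 5 OTU. OTUB2, OTUD3, OTUD7A, USP20, USP26, USP30, USP35, USP40, USP43, USP44, USP45, USP49, USP51 and USP53 had no tested probe. The probes of OTUB1, OTUD5, USP19, USP31, USP36, USP38 and USP43 were shifted by single bases along the same stretch, and these are not independent measurements.

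Of the 40 genes measured, 5 were higher in treated cells (OTUB1, OTUD4, OTUD7B, USP11 and USP21) and 3 were lower (USP1, USP42 and USP48), by limma with Benjamini-Hochberg adjustment over all 24230 tested probes and a threshold of 0.05. The 5 higher genes were 12.5% of the members, and 9.93% of all 13692 measured gene names were higher. The 3 lower genes were 7.5% of the members, against 7.16% of all gene names. Both shares were near the background. Counted as probes, 7 of 76 were higher and 4 lower, where 9.49% of all probes were higher and 7.59% lower. USP21 and USP42 met the background rule on all 4 arrays only in the channel where they were higher. With both channels required on all 4 arrays, 4 of 35 genes were higher and 2 lower. As probes, 6 of 68 were then higher and 3 lower, beside 2059 and 1744 of all 22910 probes. The ratio had 1 sign on all 4 arrays for 19 of the 40 genes (47.5%) and for 43.7% of all gene names. The changes were small. By limma 0 of the 40 genes passed the threshold with a fold change of at least 1.3, while 16 had an unadjusted p-value under 0.05. The median log2 ratio over the 40 genes was 0.027, beside 0.0088 over all gene names.

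**Figure D1:**
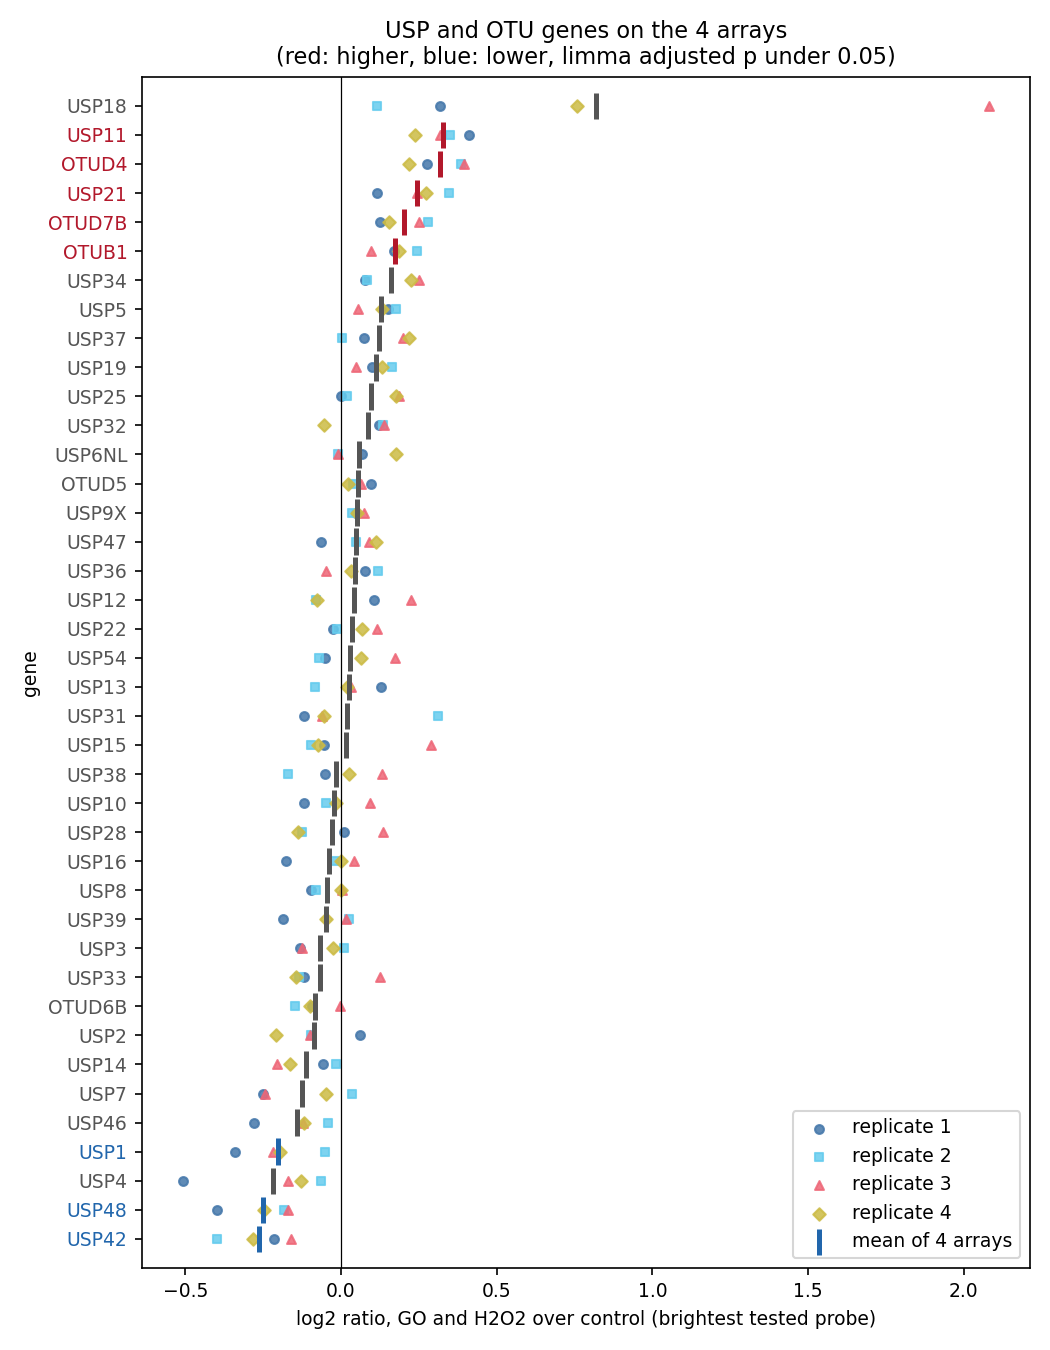
Log2 ratio of treated over control signal (x axis) for the 40 measured USP and OTU genes (y axis, ordered by mean), with 1 point per array and a vertical bar for the mean of 4 arrays. Most genes lay within 0.2 of 0, the 5 higher genes are red, the 3 lower genes are blue, and USP18 on replicate 3 stood apart at 2.08.

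The calls depended on single arrays, most of all on replicates 1, 3 and 4. Without replicate 1, replicate 3 or replicate 4, 0 of the 40 genes passed limma's threshold (11, 13 and 10 had an unadjusted p-value under 0.05), and 2, 38 and 0 of all probes did. Without replicate 2, 6 of the 8 called genes remained past it. In each of these fits the 8 genes kept the sign of their ratio. No member passed with median centring in place of loess, and 2 genes (OTUD4 and USP11) passed when the channels were fitted without the pairing on the array. With Agilent's processed signals 5 of the 8 called genes passed, and OTUB1 (adjusted p = 0.0504), USP48 (0.0536) and USP1 (0.0671) did not.

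The OTU family had 5 measured genes, of which 3 were higher and none lower, beside 9.93% and 7.16% of all gene names, with a median log2 ratio of 0.17. OTUD4 removes K48- and K63-linked chains, acts on the innate immune adaptor MyD88, and serves as a scaffold through which USP7 and USP9X stabilise DNA alkylation repair enzymes. Its ratios were 0.28, 0.38, 0.40 and 0.22 on replicates 1 to 4. All arrays were above 0, with a mean of 0.32 ± 0.085 (SD, n = 4), a fold change of 1.25 (limma adjusted p = 0.0166). The probe was dim. Its scanned red intensities were 151, 140, 131 and 142, and the green ones were 123, 115, 107 and 136, although both channels were well above background on every array. With Agilent's processed signals the mean ratio was 0.63, so that the size depended on the processing. The probe lies on chr2:72857474-72857533 (EquCab1, plus strand). It is shown because the OTUD4 call rests on this single probe.
OTUD4 probe: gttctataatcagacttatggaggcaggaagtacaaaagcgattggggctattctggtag

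OTUB1 cuts K48-linked chains and also binds ubiquitin-conjugating enzymes such as UBE2N, which it blocks without cutting. Its scanned red intensities were 8127, 7269, 5187 and 6124 on replicates 1 to 4. The green intensities of the same probe were 5905, 4640, 3937 and 4637. After normalisation the ratios were 0.17, 0.24, 0.096 and 0.19, all above 0. The mean was 0.17 ± 0.061 (SD, n = 4; limma adjusted p = 0.0382). Its 5 probes, which overlap in all but a few bases, had means from 0.16 to 0.20, and 3 of them passed the threshold. OTUD7B (Cezanne), which cuts K11-linked chains and limits NF-kappaB signalling, had ratios of 0.13, 0.28, 0.25 and 0.15. Its mean was 0.20 ± 0.074 (SD, n = 4; limma adjusted p = 0.0314), and it was 0.35 with Agilent's processed signals. OTUD5, which trims chains on TRAF3, had a mean of 0.056 and OTUD6B, which acts on the translation machinery, one of -0.085. Neither passed the threshold, although each kept 1 sign on all arrays at its brightest probe. The overlapping probes of OTUD5 differed in sign on replicate 4, with ratios from -0.12 to 0.088.

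**Figure D2:**
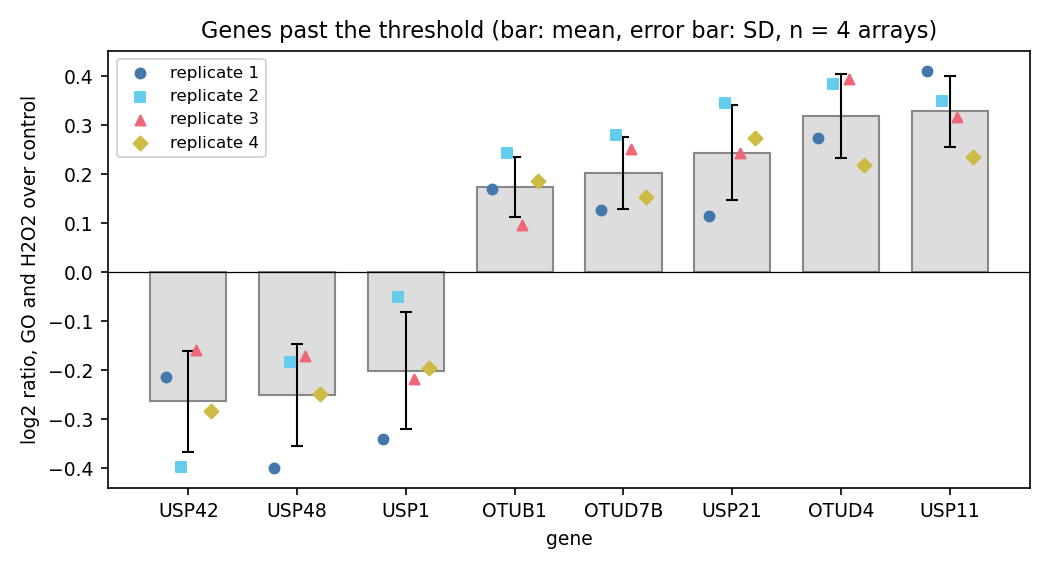
Log2 ratio of treated over control signal (y axis) for the 8 USP and OTU genes past the threshold (x axis). Bars give the mean and error bars the SD of 4 arrays, and points give the arrays, so that all 4 points of a gene lie on 1 side of 0.

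Among the USP genes 2 were higher (5.71%) and 3 lower (8.57%) of 35 measured, with a median of 0.019. Of all gene names 9.93% were higher and 7.16% lower. USP11, which acts in homologous recombination and on TGF-beta receptors, was the highest of the genes past the threshold. Its scanned red intensities were 5376, 4356, 3463 and 3554 on replicates 1 to 4. The green intensities were 3372, 2648, 2274 and 2654. The ratios of 0.41, 0.35, 0.32 and 0.24 were all above 0, and the mean was 0.33 ± 0.073 (SD, n = 4), a fold change of 1.26 (limma adjusted p = 0.0153). The mean of USP11 was between 0.30 and 0.36 under every alternative that was run. USP21, which removes ubiquitin from histone H2A, had ratios of 0.11, 0.35, 0.24 and 0.27. Its mean was 0.24 ± 0.097 (SD, n = 4; limma adjusted p = 0.0265). The control channel of this probe was well above background on only 2 of the 4 arrays, and the mean was 0.58 with Agilent's processed signals.

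USP48 was the lower gene with the most probes. It removes ubiquitin from histone H2A at sites marked by BRCA1 and acts on the NF-kappaB subunit RelA. Its brightest probe had ratios of -0.40, -0.18, -0.17 and -0.25 on replicates 1 to 4. All arrays were below 0, with a mean of -0.25 ± 0.10 (SD, n = 4; limma adjusted p = 0.0273). The neighbouring probe had ratios of -0.42, -0.17, -0.16 and -0.036, and its mean of -0.20 did not pass (adjusted p = 0.0793). Both are shown because they join without a gap to 120 bases that read as 39 codons followed by a stop codon, which is in capitals, and so measure the end of the coding sequence. On the genome (EquCab1, plus strand) the upstream probe spans chr2:31270553-31272100 and the downstream probe chr2:31272101-31275453, each 60 bases long and thus split by an intron.
USP48 upstream probe: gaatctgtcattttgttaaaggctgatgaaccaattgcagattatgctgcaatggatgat
USP48 downstream probe: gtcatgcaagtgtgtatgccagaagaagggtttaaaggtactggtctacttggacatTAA

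Beyond the stop codon, the probe at chr2:31275872-31275931 had ratios of -0.63, -0.42, -0.40 and -0.16. Its mean of -0.40 ± 0.19 (SD, n = 4; limma adjusted p = 0.0232) was the lowest of all member probes and the only one past the threshold with a fold change of at least 1.3. The next probe, at chr2:31275955-31276014, was well above background on 0 arrays in either channel. The last, at chr2:31276451-31276510, was above background on 2 arrays in the treated channel and 1 in the control channel. The probes that measured USP48 thus ended before the final pair. On each of the 3 tested probes replicate 1 had the lowest ratio.

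**Figure D3:**
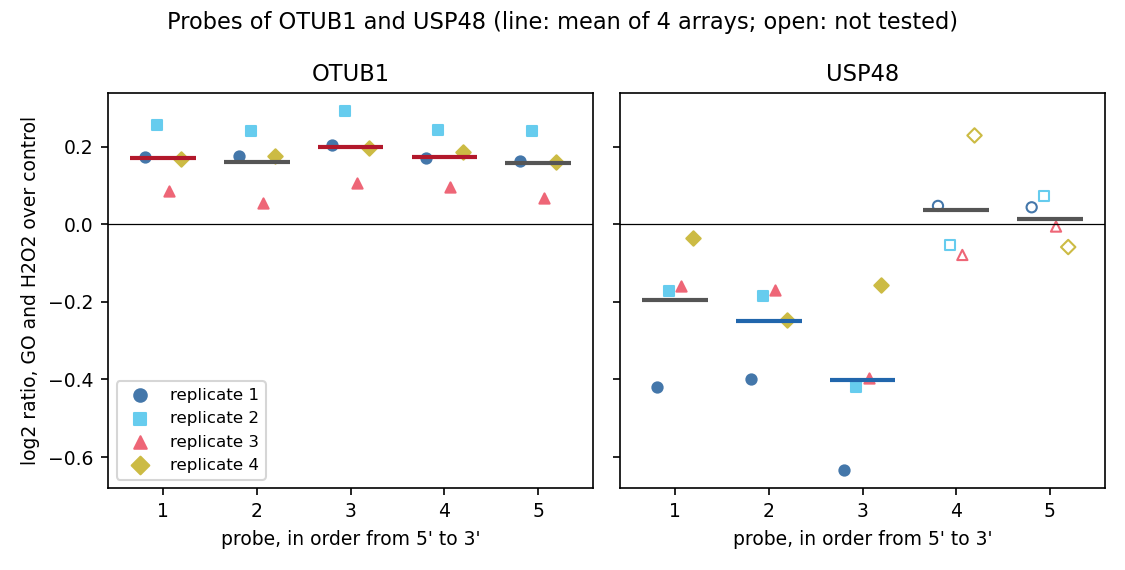
Log2 ratio of treated over control signal (y axis) for each probe of OTUB1 (left) and USP48 (right), in order along the transcript (x axis). Points are arrays, open points are probes that were not tested, and lines are means over 4 arrays, coloured where the probe passed the threshold. The 5 OTUB1 probes gave nearly the same values, whereas USP48 had 3 probes below 0 and 2 near background.

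USP42, a deubiquitinase of histone H2B, had ratios of -0.21, -0.40, -0.16 and -0.28 on replicates 1 to 4. Its mean was -0.26 ± 0.10 (SD, n = 4; limma adjusted p = 0.0240). It was the lowest gene mean among the members. Scanned intensities were low, with 83, 86, 91 and 79 in red and 113, 136, 130 and 135 in green. The treated channel was well above background on 3 arrays, and with Agilent's processed signals the mean was -0.67. The probe, shown because it alone carries the call, lies on chrUn:137355123-137356211 (EquCab1, minus strand) and spans an intron.
USP42 probe: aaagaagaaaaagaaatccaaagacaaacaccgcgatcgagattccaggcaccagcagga

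USP1 removes the single ubiquitin from FANCD2 and PCNA in DNA repair, together with its activator WDR48. Its ratios were -0.34, -0.050, -0.22 and -0.20 on replicates 1 to 4, all below 0. The mean was -0.20 ± 0.12 (SD, n = 4; limma adjusted p = 0.0485), the nearest to the threshold of the called genes, and the adjusted p-value ranged from 0.0299 to 0.803 over the alternatives. Of its substrates, PCNA had ratios of -0.23, 0.30, -0.29 and -0.20, FANCD2 of -0.10, 0.24, -0.47 and -0.17, and FANCI of -0.54, 0.14, -0.74 and -0.75. All were positive on replicate 2, where USP1 was closest to 0, and their means did not pass the threshold. These substrates were chosen after their values were seen, and a relation to USP1 was not tested. WDR48 itself had a mean of 0.053, and USP12 and USP46, which also need WDR48, had 0.043 and -0.14 without passing. The control channel of this USP12 probe was well above background on 2 arrays, and the other USP12 probe had a mean of 0.16.

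Besides USP1, OTUB1 and USP11, the members listed for p53 and DNA damage did not pass. OTUD4 and USP48, which passed and are also tied to DNA repair, were not on this list. USP7, which stabilises MDM2, had ratios of -0.25, 0.035, -0.24 and -0.047, with a mean of -0.13 (adjusted p = 0.176). USP10, a cytoplasmic enzyme that binds stress granule proteins, had a mean of -0.022 and USP28, which stabilises MYC, one of -0.029. USP47 had a mean of 0.047. Over the 8 measured genes of this role, 2 were higher (OTUB1 and USP11), 1 was lower (USP1) and the median was 0.012, where 9.93% of all gene names were higher and 7.16% lower.

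Among the chromatin enzymes USP3, USP16, USP21, USP22 and USP36, 1 of 5 was higher (USP21, 20%) and none was lower. Of all gene names 9.93% were higher and 7.16% lower. The median over the chromatin enzymes was 0.036. USP42 and USP48, which also act on histones and were lower, were not on this list. USP22, the deubiquitinase of the SAGA coactivator, had ratios of -0.024, -0.013, 0.11 and 0.066, with a mean of 0.036 (adjusted p = 0.571), and the mean was 0.18 with Agilent's processed signals, where it did not pass either. ATXN7L3 and ENY2, which activate USP22 within SAGA, were lower. ATXN7L3 had ratios of -0.24, -0.17, -0.28 and -0.23, with a mean of -0.23 (limma adjusted p = 0.0208). ENY2 had ratios of -0.20, -0.15, -0.30 and -0.17, with a mean of -0.21 (adjusted p = 0.0287). Of 14 measured partners of USP and OTU enzymes these were the only ones lower (14.3%, beside 7.16% of all gene names). G3BP1, a stress granule protein that binds USP10, was the only one higher (7.14%, beside 9.93%). Its mean was 0.18 (limma adjusted p = 0.0449), where USP10 itself did not pass. Of the 2 tested G3BP1 probes 1 passed.

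The TGF-beta group held USP4, USP9X and USP15, which act on TGF-beta receptors or SMAD proteins, and none of them passed. USP11, which acts on the same receptors and was higher, was listed with the DNA damage genes. USP4 had ratios of -0.51, -0.064, -0.17 and -0.13, all below 0, with replicate 1 the farthest. Its mean was -0.22 ± 0.20 (SD, n = 4; limma adjusted p = 0.0899), and it was -0.12 without replicate 1. USP9X had ratios of 0.048, 0.034, 0.073 and 0.052, the tightest of the named genes. Its mean was 0.052 (limma adjusted p = 0.345, 95% interval -0.036 to 0.14). The other USP9X probe had a mean of 0.12 and did not pass either (limma adjusted p = 0.0715). USP15 had 0.29 on replicate 3 and values from -0.097 to -0.055 on the other arrays. Its neighbouring probe gave 0.32 on replicate 3, while its downstream probe gave 0.21 there and values from -0.012 to 0.14 elsewhere.

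Of the enzymes that serve the proteasome or recycle free chains, USP14, bound to the proteasome, had a mean of -0.11 (adjusted p = 0.136, unadjusted p = 0.0498). USP5, which takes apart free ubiquitin chains, had 0.13 (adjusted p = 0.0706) and its relative USP13 had 0.024 (adjusted p = 0.734). The muscle-linked USP19, which also has a form anchored in the endoplasmic reticulum, had ratios of 0.10, 0.16, 0.049 and 0.13. All arrays were above 0, and its mean of 0.11 did not pass (limma adjusted p = 0.0957). This was the highest mean of its 5 overlapping probes. The lowest was 0.043, with ratios of 0.077, 0.17, -0.0013 and -0.077. USP2 had a mean of -0.086 (adjusted p = 0.271) and USP25 one of 0.096 (adjusted p = 0.208). The control channel of USP25 was above background on 2 arrays, and its mean was 0.51 with Agilent's processed signals, which did not pass. USP6NL fits the naming rule but is a GTPase-activating protein for Rab proteins and not a deubiquitinase. Its mean was 0.056, and the counts of calls were the same without it. USP39, listed as a splicing protein without deubiquitinase activity, had a mean of -0.048 and did not pass.

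USP18 had the highest ratio of the members and the widest spread. It removes ISG15, a ubiquitin-like protein induced by interferon, and also blocks the interferon receptor. Scanned red intensities were 325, 215, 997 and 445 on replicates 1 to 4. The green intensities were 242, 202, 203 and 270. The ratios were 0.32, 0.12, 2.08 and 0.76. All were above 0, but replicate 3 was far above the other arrays, and the mean of 0.82 ± 0.88 (SD, n = 4; 95% interval 0.11 to 1.53) did not pass the threshold (limma adjusted p = 0.10). Without replicate 3 the mean was 0.40 and did not pass either. On replicate 3 only 14 of 13692 gene names had a higher ratio than USP18, on replicate 4 there were 38, on replicate 1 there were 826 and on replicate 2 there were 3626. Its SD ranked number 25 of all measured gene names. The other USP18 probe gave 0.47, -0.0079, 2.12 and 0.76. The upstream probe lies on chr6:27336266-27336841 and the downstream probe on chr6:27334502-27336281 (EquCab1, minus strand), each across an intron. They are shown because the pattern was measured with both, and the 16 bases that they share are in capitals.
USP18 upstream probe: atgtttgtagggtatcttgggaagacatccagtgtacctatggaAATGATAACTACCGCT
USP18 downstream probe: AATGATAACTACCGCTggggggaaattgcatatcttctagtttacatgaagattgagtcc

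Other interferon-stimulated genes were set beside USP18. This list was chosen after the values were seen, so its counts and medians depend on that choice. No test was made over the list as a set. Of its 19 measured genes, 18 had a positive mean, and the median was 0.33, 0.054, 1.5 and 0.43 on replicates 1 to 4, beside medians from -0.013 to 0.069 over the USP and OTU genes. ISG15, the substrate of USP18, had ratios of 0.59, 0.053, 2.13 and 0.89. MX1, an antiviral GTPase, had 0.84, 0.29, 3.32 and 0.87. By limma 2 of the 19 were higher past the threshold over all probes, OASL and IRF9, which is 10.5% beside 9.93% of all gene names. OASL passed on 1 of its 2 tested probes. On replicate 3 the 8 called USP and OTU genes had ratios between -0.22 and 0.40. They had been chosen by a test over the same arrays, which favours genes with a small spread.

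**Figure D4:**
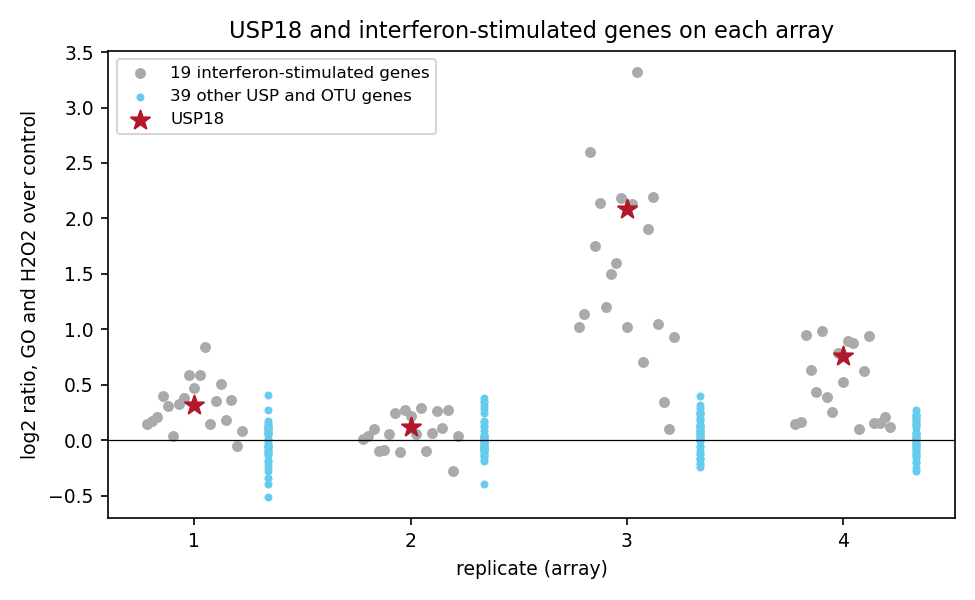
Log2 ratio of treated over control signal (y axis) on each array (x axis) for USP18 (star), 19 interferon-stimulated genes (grey) and the 39 other USP and OTU genes (blue). USP18 and most of the interferon-stimulated genes (all but OASL and STAT2) were highest on replicate 3, where USP18 had 2.08, and the median of the grey points was lowest on replicate 2, at 0.054.

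Deubiquitinases and related proteins outside the USP and OTU names were set beside the members. The active enzymes of the JAMM family are zinc metalloproteases, while COPS6 and EIF3H belong to it without the metal-binding motif. Of 8 measured JAMM genes 5 were lower and none higher, beside 7.16% and 9.93% of all gene names, with a median of -0.17. PSMD14, which removes chains at the proteasome lid, had ratios of -0.21, -0.22, -0.21 and -0.17, with a mean of -0.20 (limma adjusted p = 0.0227). BRCC3, which cuts K63-linked chains, had -0.42, -0.39, -0.28 and -0.12, with a mean of -0.30 (adjusted p = 0.0249). COPS5, the deneddylase of the COP9 signalosome, had a mean of -0.19, STAMBPL1 of endosomes had -0.23, and EIF3H of the translation initiation complex had -0.15. The values of each of these 5 genes were below 0 on all arrays. STAMBPL1 passed on 1 of its 2 tested probes. Of 9 measured UCH, MJD, MINDY and CYLD enzymes 1 was lower, UCHL5, which binds the proteasome and had a mean of -0.15 (adjusted p = 0.0461). None of the 3 measured OTU enzymes with other names (FAM105B, VCPIP1 and ZRANB1) and none of 5 ubiquitin and E1 genes passed, where 0 and 1 had an unadjusted limma p-value under 0.05.

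The cell type on the label was checked with marker genes. All 9 myogenic markers on the array were measured, and 5 were higher in treated cells (MYOG, CKM, MYF6, MYH3 and NCAM1). NCAM1 passed on 1 of its 3 tested probes. Of all gene names 9.93% were higher and 7.16% lower. The summed signal of the 9 myogenic markers was between 141340 and 210840 in treated and between 111220 and 170720 in control cells. It was higher in treated cells on all 4 arrays. Of 4 measured fibroblast markers LUM was lower and THY1 higher, PDGFRA was not tested, and the summed signal was between 177750 and 203490 in treated and between 133380 and 204700 in control cells. Of the leukocyte markers CD14 was lower, CD68 did not pass and CD3E was not above background, with a summed signal of the measured pair from 3030 to 4293 in treated and from 3317 to 5131 in control cells. The 4 adipocyte and 5 endothelial markers on the array had no tested probe. Whether these differences have a part in the USP and OTU ratios was not tested.

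**Figure D5:**
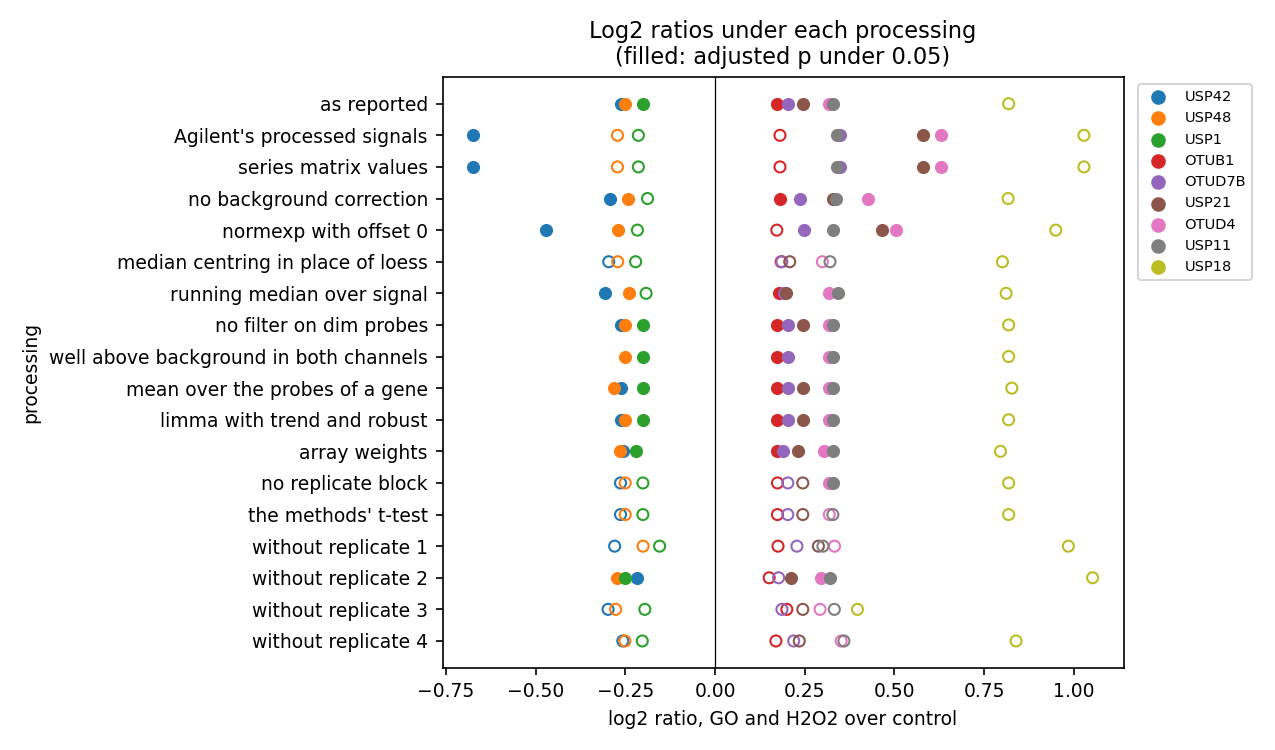
Log2 ratio of treated over control signal (x axis) for the 8 called genes and USP18 under each processing (y axis), filled where the adjusted p-value was under 0.05. Signs never changed for these genes, whereas OTUD4, USP21 and USP42 moved to 0.63, 0.58 and -0.67 with Agilent's processed signals.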

How the data were processed

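The authors hybridised treated against control RNA on 4 two-colour Agilent horse arrays and used Agilent's Feature Extraction (version 10.10.1.1) to read the spots. The deposited intensity columns hold mean and background signals of both channels as scanned, and processed signals after background subtraction and dye normalisation. The deposited log10 ratios (red over green) derive from the processed signals, and the series matrix repeats them (largest difference 0). Mean signals were corrected with normexp (offset 50) against background medians and normalised by loess within each array, with control spots at weight 0. Outlier spots were left out (45 gene spots), and no member spot was saturated (0). Spots of a probe were averaged. Of 43603 gene probes 24230 had 1 channel that was well above background on every array. Their mean log2 ratio was tested against 0 (two-sided) with limma 3.58.1 in R 4.3.3, with adjustment by Benjamini-Hochberg and a threshold of 0.05. A fold limit of 1.3, which the study's methods name, was used for a second count, although its gene list was not held to that limit. The fit was tested on simulated data. Between 54.9% and 61.4% of gene spots were well above background in a channel.

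Named genes were OTUD4, every member past the threshold on a probe, the 3 highest and 3 lowest members, USP1, USP2, USP7, USP9X, USP10, USP13, USP14, USP15, USP19, USP22, USP25, USP28, OTUB1 and OTUD7B, and from each pathway list the genes past the threshold. The substrates of USP1 and the other genes given outside this rule were chosen after their values were seen. The members and lists were chosen with earlier results of these data known. Counts over the list of substrates are not reported here. Positions are those of the array annotation (EquCab1). Exons and UTRs were not annotated here, and probe sequences that may lie in a UTR are not shown.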

Additional observations from a re-analysis of the deposited data

Results flagged for a closer look

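Of 31 sets of 4 array values examined for a single distant array (the named members, the called genes of the pathway lists and the members' median), 1 had such an array. USP15, which acts on SMAD proteins, had a log2 ratio of 0.29 on replicate 3, at a gap of 0.891 of the whole range from its nearest neighbour. Chance sets an array apart in about 1 of 20 such groups.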

How the results depend on the processing

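The 8 called genes kept their direction under all alternatives in which they were measured. With median centring in place of loess, 12 of all probes, 0 member probes and 0 member genes passed limma's threshold, and 1571, 6 and 4 had an unadjusted p-value under 0.05. Without the pairing of channels on an array (no replicate block), 594 probes, 2 member probes and 2 member genes passed. The channels of an array deviated together, with correlations from 0.118 to 0.582 across probes. With the methods' t-test, 5 probes, 0 member probes and 0 member genes passed after adjustment, and 6930, 25 and 13 had an unadjusted p-value under 0.05. Leaving out 1 array gave 0 to 3899 probes, 0 to 8 member probes and 0 to 6 member genes, with none of the members past the threshold without replicate 1, 3 or 4. The members' median ranged from -0.0040 (without replicate 3) to 0.049 (without replicate 2). Under the other alternatives the counts stayed within 1.5 times those reported, but not all of the genes were the same. OTUB1, USP1 and USP48 no longer passed with the values of the series matrix or the processed signals they come from. With a normexp offset of 0, OTUB1 (limma adjusted p = 0.0580) and USP1 (0.0582) did not pass. USP1 also did not pass without background correction (0.0549) or after subtraction of a running median over signal (0.0511). Signs changed only for genes near 0. USP28 was 0.0062 without background correction and ranged from -0.084 (without replicate 3) to 0.0063 (without replicate 4) when 1 array was left out, with 0.0031 without replicate 2. USP15 was -0.0057 with median centring and ranged from -0.075 (without replicate 3) to 0.054 when 1 array was left out. Over the same fits USP10 ranged from -0.061 to 0.011 and USP13 from -0.010 to 0.060, and both changed sign without replicate 1. The cause of these changes was not tested. For the 8 called genes, the call was lost in 58 of 134 combinations of gene and alternative (43.3%). The brightest tested probes of USP12, USP21, USP25, USP36, USP37 and USP42 were not well above background on every array in 1 channel. This limits how well the size of their ratios is known.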
